A study of Mus musculus with 4 samples.

Results

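Immediate early genes are switched on within minutes of a growth or stress signal, before any new protein is made. The genes described here are 10 in number: the AP-1 genes Fos, Jun, Junb and Jund, the transcription factor genes Egr1, Srf, Myc and Mycn, the phosphatase gene Dusp1 and the nuclear regulator gene Ier2. They were chosen by name, with earlier results of these data known, from a table of 23697 loci. RefSeq identifiers in that table were turned into symbols, and each of the 10 had a single row. RNA was measured in 4 libraries from WW6 cells, a mouse embryonic stem cell line of mixed strain origin. The 2 knockdown libraries came from cells given a transient dose of small interfering RNA that targets Kdm5b. KDM5B takes methyl groups off lysine 4 of histone H3. The 2 control libraries came from cells that received small interfering RNA against GFP with the same lipid reagent, and the treatment label calls this a mock control construct. All cells grew without feeder cells on gelatin in medium with serum and leukemia inhibitory factor, and spent the transfection in serum-free medium before regular medium was added back. The knockdown was transient, and neither the share of cells that took up the small interfering RNA nor the time of harvest is stated. The libraries are named A and B in each group, and nothing says that they were separate cultures, so a p-value here sets a difference against library spread that could be technical alone.

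Growth factor receptors signal through Ras and the kinase ERK to factors that wait on the promoters of immediate early genes. SRF sits on CArG boxes with partners of the ELK or MRTF families, and CREB sits on cyclic AMP response elements. The FOS and JUN proteins pair to form AP-1, DUSP1 removes phosphate from the kinases that started the response, and MYC pairs with MAX to drive genes of growth. In embryonic stem cells Mycn is a major MYC family gene, and leukemia inhibitory factor is known to keep Myc expressed through STAT3.

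Promoter sequence is shown for Fos, Srf and Dusp1, the genes in which a knockdown library lay farthest below the gene's own mean, with letters from RefSeq on GRCm38.p6. Each line gives the 250 bases before the start of transcription, 5′ to 3′ on the strand of the gene. Capitals mark exact matches, on either strand, to a CArG box (CCWWWWWWGG, with W for A or T) or TGACGTCA (the cyclic AMP response element). They also mark, on either strand, CACGTG (an E-box) and TATAAA (known as the TATA box). Variants of these letters stay in lower case.
Fos, chr12:85473640-85473889, plus strand: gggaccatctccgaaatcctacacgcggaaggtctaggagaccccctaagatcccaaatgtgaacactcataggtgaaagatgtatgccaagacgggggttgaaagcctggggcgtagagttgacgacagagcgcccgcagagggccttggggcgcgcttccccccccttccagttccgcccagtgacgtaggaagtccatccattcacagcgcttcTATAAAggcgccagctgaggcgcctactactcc
Srf, chr17:46556163-46556412, minus strand: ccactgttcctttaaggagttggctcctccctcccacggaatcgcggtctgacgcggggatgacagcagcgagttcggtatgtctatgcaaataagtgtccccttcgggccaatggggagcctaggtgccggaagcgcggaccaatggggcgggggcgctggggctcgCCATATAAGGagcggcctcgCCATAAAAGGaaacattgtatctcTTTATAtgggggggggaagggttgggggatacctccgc
Dusp1, chr17:26508473-26508722, minus strand: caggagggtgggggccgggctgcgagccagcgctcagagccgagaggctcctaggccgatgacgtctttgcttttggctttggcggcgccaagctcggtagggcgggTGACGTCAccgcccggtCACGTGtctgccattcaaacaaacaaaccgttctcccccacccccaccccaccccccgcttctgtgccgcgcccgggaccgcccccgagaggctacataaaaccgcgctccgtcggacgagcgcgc
Srf held 2 CArG boxes, CCATATAAGG at 82 to 73 bases and CCATAAAAGG at 62 to 53 bases before the start, and it was the only gene with such a match among the 7 of the 10 whose promoter could be searched. Of 32851 promoters of the same length, 1.47% held a CArG box. Dusp1 held TGACGTCA, present in 1.55% of promoters, and CACGTG, present in 6.02%. Fos held TATAAA 33 to 28 bases before its start, as 12.4% of promoters held it on either strand, and Srf held it on the opposite strand. Jun, Junb and Srf held the letters CCAAT, which 33.8% of promoters hold, while Jund and Mycn held none of the motifs searched. None of the 7 held TGANTCA (N being any base), the only form of the AP-1 site searched, which 6.75% of promoters did. The searched motifs included GCGTGGGCG, an EGR site, which 0.536% of promoters held and none of the 7 did. Sequence outside these 250 bases was not searched, nor were the promoters of Egr1, Ier2 and Myc. Only exact letters were searched, and a variant of a site inside the window would be missed. A missing match thus holds for this window and these letters only. A match describes letters only, and no binding was measured.

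The deposited values are FPKM, which scale fragments to transcript length and library size. From the steps between low values, knockdown A had 74.6% of the estimated depth of control A, the deepest library, and the other libraries had 96.2% to 97.5%. Knockdown A listed 11953 loci at 0, against 8609 in knockdown B and 8131 and 8281 in the controls. Kdm5b itself had 22.7 and 31.1 FPKM in knockdown A and B and 99.7 and 145 FPKM in control A and B, and its limma adjusted p was 0.562. All 8 stem cell markers, Pou5f1 and Nanog among them, stood above 1 FPKM in every library, with a summed level of 2486 and 2023 FPKM in knockdown A and B and 1979 and 2239 FPKM in control A and B. Of 8 fibroblast or feeder markers 4, Col1a1, Col1a2, Col3a1 and Dcn, lay under 1 FPKM in every library. Among the other 4, Vim stood between 70.2 and 142 FPKM, and the highest library reached 6.48 FPKM for Acta2, 3.65 FPKM for Pdgfrb and 2.06 FPKM for Thy1.

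None of the 10 genes passed the test for a difference between knockdown and control libraries. The test was limma on log2(FPKM + 1) over the 11784 loci that averaged 1 FPKM or more, at a Benjamini-Hochberg adjusted p under 0.05, and all 10 genes were among those tested. It called 0 of the 10, against 0.0339% of all tested loci, and at an unadjusted p under 0.05 it again gave 0 of the 10, against 2.46% of all tested loci. On the fitted log2(FPKM + 1) scale, means were lower in knockdown for 5 genes (52.9% of all tested loci were) and higher for 5 (47.1% of all tested loci). By plain FPKM means 6 were lower, Mycn being the sixth at a ratio of 1.00. The median log2 fold change of the 10 was 0.0010, against -0.03 over all tested loci. The 95% intervals were wide: they reached a median of 1.03 to either side of the estimate for the 10 genes and 0.90 over all tested loci. Those of Junb, Jund and Mycn, 3 of the 10, stayed inside -1 to 1.

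**Figure D1:**
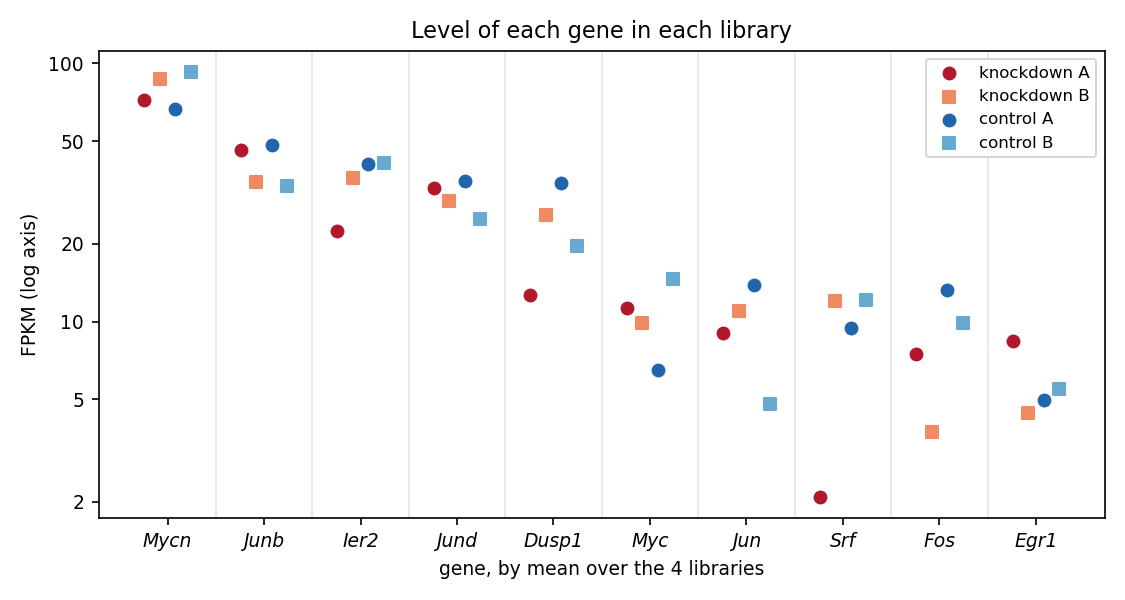
FPKM on a log axis for each of the 10 genes in knockdown A, knockdown B, control A and control B, ordered by the mean over the 4 libraries; each point is 1 library. Mycn stands highest, between 66.5 and 92.7 FPKM, and Srf in knockdown A is the lowest single value, at 2.10 FPKM.

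The levels, which are per length and so can be set against each other, spanned more than a decade. Mycn averaged 79.6 ± 12.3 FPKM over the 4 libraries (SD, n = 4), above 90.3% of tested loci. Junb followed at 40.7 ± 7.59 FPKM, Ier2 at 35.2 ± 8.8, Jund at 30.5 ± 4.38 and Dusp1 at 23.1 ± 9.30 (SD, n = 4 each). The lower group held Myc at 10.6 ± 3.38 FPKM, Jun at 9.65 ± 3.80, Srf at 8.90 ± 4.70, Fos at 8.60 ± 4.02 and Egr1 at 5.82 ± 1.79 (SD, n = 4 each). Egr1 stood above only 29.9% of tested loci. Only the step from Mycn to Junb was free of overlap between ranges, since the lowest Mycn library lay at 66.5 FPKM and the highest Junb library at 48.3 FPKM. Compared within each library, 3 of the 9 pairs of neighbours kept their order in all 4: Mycn above Junb, Jund above Dusp1 and Dusp1 above Myc. The other 6 pairs changed order between libraries. Estimated fragments per library ran from 585 to 984 for Mycn but from 53 to 78 for Egr1, from 30 to 111 for Fos and from 17 to 126 for Srf.

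Fos encodes the partner that gives AP-1 its most stable pairing with JUN proteins (mm9 chromosome 12, 86814850 to 86818219 as deposited). It measured 7.51 and 3.73 FPKM in knockdown A and B and 13.3 and 9.91 FPKM in control A and B. The groups did not overlap, and knockdown B was the lowest library. The means were 5.62 ± 2.67 FPKM in knockdown and 11.6 ± 2.37 FPKM in control libraries (SD, n = 2 each), a ratio of 0.485. The fitted log2 difference of -0.98 (standard error 0.42, 95% interval -2.00 to 0.04) had a limma adjusted p of 0.918 and was the largest in size among the 10. It was -1.40 without knockdown A and -0.55 without knockdown B. Some markers of other cell types also lay below both controls in both knockdown libraries, as 16.9% of all tested loci did. That share covers only loci averaging 1 FPKM or more, a level that Sox17, Sox7 and Col3a1, named below, did not reach. Of the 8 stem cell markers 2, Esrrb and Lin28a, also lay below both controls, while the other 6 overlapped. The summed level of 6 endoderm markers was 2.32 and 2.64 FPKM in knockdown A and B and 6.83 and 8.25 FPKM in control A and B. Of those 6, none reached 1 FPKM in every library. Below both controls in both knockdown libraries were 4, Gata4, Sox17, Sox7 and Dab2, and Foxa2 was at 0 in all but control B. Gata6 went both ways: knockdown A was its highest library (2.32 FPKM) and knockdown B its lowest (0.08 FPKM). Its controls lay between (A 1.81 FPKM, B 2.09 FPKM). The endoderm sum of knockdown A was thus Gata6 alone, every other endoderm marker being listed at 0 there. That of knockdown B came mostly from Gata4 (1.25 FPKM) and Dab2 (0.92 FPKM). The sums of 4 trophoblast markers were 11.4 and 22.6 FPKM in knockdown A and B and 59.8 and 24.8 FPKM in control A and B. Nearly all of it came from Krt8 and Krt18, which both lay below both controls. In knockdown B Krt18 did so narrowly, at 12.2 FPKM against 12.4 FPKM in control B. Eomes and Cdx2 overlapped between the groups, with Cdx2 at 0 in knockdown A and control A. For 4 neural markers, all above 1 FPKM in every library, the sums were 55.4 and 49.9 FPKM in knockdown and 63.2 and 65.3 FPKM in control. Tubb3 alone carried that gap, at 39.1 and 38.4 FPKM in knockdown and 48.9 and 50.8 FPKM in control, while Pax6, Sox1 and Nes overlapped between the groups. The sums of the 8 fibroblast or feeder markers overlapped, at 145 and 96.2 FPKM in knockdown and 80.2 and 123 FPKM in control, nearly all of it Vim. Of those 8, however, Thy1 lay below both controls (0.20 and 0.31 FPKM in knockdown and 2.06 and 1.66 FPKM in control), as did Acta2 (0 and 1.09 FPKM in knockdown and 6.48 and 1.17 FPKM in control) and Col3a1, and Pdgfrb lay above both. The part of other cells in the Fos values was not tested, and in bulk RNA fewer cells of a type and less RNA per cell cannot be told apart.

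The 3 Jun genes encode the AP-1 subunits that can also pair with each other; JUND is the member made steadily in resting cells, and JUNB is a weaker activator than JUN. Jun (mm9 chromosome 4, 94715726 to 94718913) measured 9.01 and 10.9 FPKM in knockdown A and B and 13.9 and 4.81 FPKM in control A and B. Its controls thus lay on either side of both knockdown libraries. The log2 fold change was 0.24 (standard error 0.50, 95% interval -0.99 to 1.46), and it turned to -0.44 without control B and was 0.91 without control A. Junb (mm9 chromosome 8, 87500807 to 87502647) measured 46.1 and 34.7 FPKM in knockdown A and B and 48.3 and 33.6 FPKM in control A and B. The A library was the higher in both groups, and the log2 fold change of -0.01 (standard error 0.30, 95% interval -0.73 to 0.71) became 0.04 when each library was centred on its median. Jund (mm9 chromosome 8, 73221637 to 73224515) measured 32.8 and 29.2 FPKM in knockdown A and B and 34.9 and 24.9 FPKM in control A and B, again with the controls on either side, and the log2 difference was 0.07 (standard error 0.28, 95% interval -0.61 to 0.75). Leaving out 1 library turned the sign of all 3, within -0.27 to 0.24 for Junb and -0.17 to 0.30 for Jund. Junb made up 52.4% and 46.3% of the summed FPKM of the 3 genes in knockdown A and B and 49.8% and 53.1% in control A and B, and Jund 37.4% and 39.0% in knockdown and 36.0% and 39.3% in control. Jun, the smallest part, varied most for its size, with 10.2% and 14.6% in knockdown and 14.3% and 7.59% in control. Set against Fos, Junb was 6.14 and 9.31 times as high in knockdown A and B and 3.64 and 3.39 times as high in control A and B.

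Egr1, a zinc finger factor that is among the fastest genes to respond to ERK (mm9 chromosome 18, 35020860 to 35024610), measured 8.42 and 4.42 FPKM in knockdown A and B and 4.96 and 5.48 FPKM in control A and B. Knockdown A was the highest and knockdown B the lowest of the 4. Egr1 had a log2 difference of 0.20 (standard error 0.42, 95% interval -0.83 to 1.23), and -0.20 without knockdown A. Ier2, a short nuclear protein induced with Fos (mm9 chromosome 8, 87185229 to 87186751), measured 22.4 and 36.1 FPKM in knockdown A and B and 40.9 and 41.2 FPKM in control A and B. Again the groups did not overlap, with knockdown A far below and knockdown B nearer the controls. The means were 29.3 ± 9.69 FPKM in knockdown and 41.0 ± 0.19 FPKM in control libraries (SD, n = 2 each). Ier2 had a log2 difference of -0.51 (standard error 0.30, 95% interval -1.25 to 0.23) with a limma adjusted p of 0.918, and the difference was -0.18 without knockdown A. The ratio of these 2 genes was lowest in knockdown A, since Ier2 was 2.66 and 8.17 times as high as Egr1 in knockdown A and B and 8.24 and 7.51 times in control A and B.

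Dusp1, the phosphatase that switches off ERK, p38 and JNK (mm9 chromosome 17, 26642535 to 26645417), measured 12.7 and 25.8 FPKM in knockdown A and B and 34.5 and 19.5 FPKM in control A and B. Knockdown A was lowest and control A highest, while knockdown B lay between the controls. Dusp1 had a log2 difference of -0.50 (standard error 0.44, 95% interval -1.57 to 0.57), -0.01 without knockdown A and -0.10 without control A. Srf, the factor that drives many of the other genes here and whose promoter with 2 CArG boxes is printed above (mm9 chromosome 17, 46683787 to 46693111), measured 2.10 and 12.0 FPKM in knockdown A and B and 9.41 and 12.1 FPKM in control A and B. Only knockdown A stood apart, since knockdown B lay inside the control range. The means were 7.03 ± 6.97 FPKM in knockdown and 10.8 ± 1.92 FPKM in control libraries (SD, n = 2 each). The log2 fold change of -0.88 (standard error 0.68, 95% interval -2.55 to 0.78) turned to 0.15 without knockdown A and was -1.92 without knockdown B. Its value in knockdown A stands for an estimated 17 fragments, against 122 in knockdown B, 100 in control A and 126 in control B, in the library that listed most loci at 0. The part of that library's depth and zeros in the value was not tested. The Srf interval also holds the microRNA locus Mir6976, so fragments may be shared.

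**Figure D2:**
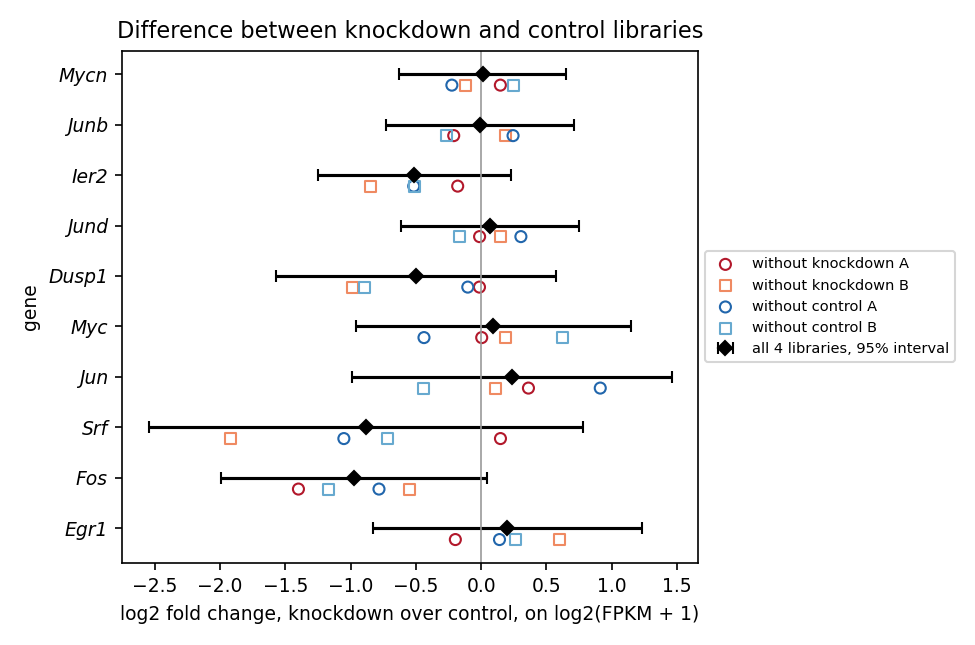
Log2 fold change of knockdown over control on log2(FPKM + 1) for each gene (diamonds, with bars for the 95% interval of limma) and with 1 library left out (open symbols). All 10 intervals include 0; the open symbols lie on both sides of 0 for every gene other than Fos, Ier2 and Dusp1.

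Myc, the inducible growth factor response gene of its family (mm9 chromosome 15, 61816895 to 61821916), measured 11.3 and 9.85 FPKM in knockdown A and B and 6.48 and 14.6 FPKM in control A and B. The controls lay on either side of both knockdown libraries. The means were alike (a ratio of 1.00), at 10.6 ± 1.02 FPKM in knockdown and 10.6 ± 5.77 FPKM in control libraries (SD, n = 2 each), and the log2 fold change was 0.09 (standard error 0.43, 95% interval -0.96 to 1.15). It was 0.63 without control B and -0.44 without control A. Mycn (mm9 chromosome 12, 12942898 to 12948642) measured 72.0 and 87.0 FPKM in knockdown A and B and 66.5 and 92.7 FPKM in control A and B, so again both knockdown libraries lay between the controls. The means were 79.5 ± 10.6 FPKM in knockdown and 79.6 ± 18.5 FPKM in control libraries (SD, n = 2 each). Mycn had a log2 difference of 0.01 (standard error 0.26, 95% interval -0.63 to 0.65), the narrowest interval of the 10, and it turned to -0.0033 with upper-quartile scaling. Mycn made up 86.5% and 89.8% of the summed FPKM of Myc and Mycn in knockdown A and B and 91.1% and 86.4% in control A and B.

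Libraries of the same group also differed from each other. Knockdown and control libraries overlapped for 8 of the 10 genes and stood clear of each other for the other 2, against 31.9% of tested loci that stood clear. Those 2, Fos and Ier2, were lower in both knockdown libraries, as were 16.9% of all tested loci. None was higher in both (0 of the 10, against 15% of tested loci). Knockdown A and B were at least 1 log2 unit apart for 1 gene, Srf (21.7% of tested loci), and control A and B for 2, Jun and Myc (7.2% of tested loci). In the controls 5 of the 10, Fos, Jun, Junb, Jund and Dusp1, were higher in A, by 0.39 for Fos and 1.36 for Jun on the log2 scale, while Myc was lower in A (-1.06), as were Mycn (-0.47), Srf (-0.33), Egr1 (-0.12) and Ier2 (-0.01). Control A lay above control B at 51.5% of tested loci. Knockdown A lay above knockdown B for 5 of the 10, against 46.7% of tested loci. In the knockdown libraries Fos (0.85), Egr1 (0.80), Junb (0.40), Myc (0.18) and Jund (0.16) were higher in A, and Srf (-2.07), Dusp1 (-0.97), Ier2 (-0.66), Mycn (-0.27) and Jun (-0.25) lower.

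**Figure D3:**
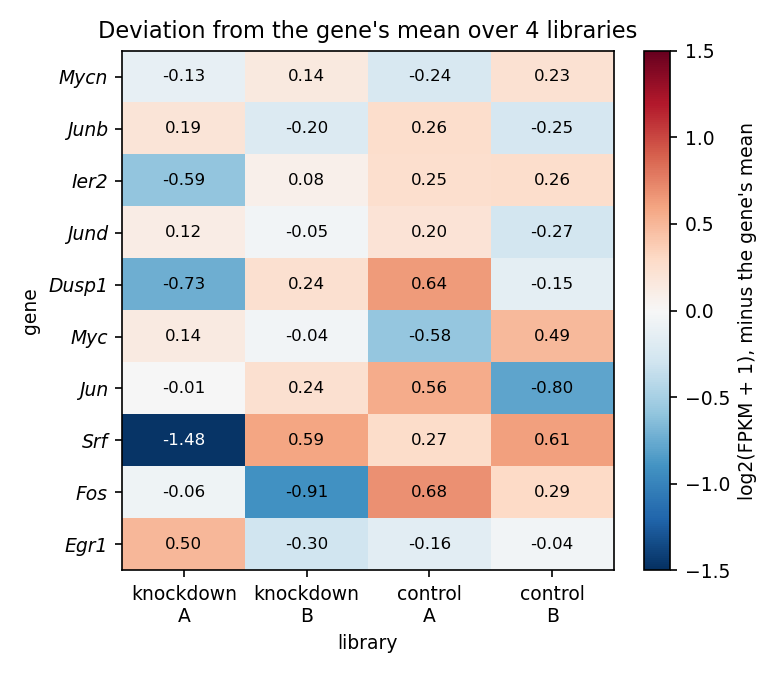
Log2(FPKM + 1) of each gene in each library minus the gene's mean over the 4 libraries, as colours from -1.5 to 1.5 with the values printed. The lowest cells are Srf (-1.48) and Dusp1 (-0.73) in knockdown A, Fos (-0.91) in knockdown B and Jun (-0.80) in control B.

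The surrounding pathway was read from 10 lists of related genes, with 149 distinct genes tested. None of them was called (0.0339% of all tested loci were), and 4 had an unadjusted limma p under 0.05, namely Id1, Shmt2, Zfp36l1 and Tia1, against 2.46% of all tested loci. In all values that follow, a median is of log2 fold changes, knockdown over control, and -0.03 is that of all tested loci. Of 14 other AP-1 subunits 6 were tested, 5 on the lower side and 1 on the higher, with a median of -0.43. Jdp2, a repressor that pairs with JUN, had 8.90 and 3.81 FPKM in knockdown A and B and 19.6 and 6.65 FPKM in control A and B. Atf3, a stress-induced partner, stood at 3.57 and 4.10 FPKM in knockdown and 13.8 and 3.0 FPKM in control A and B. Maff, a small MAF protein, had a log2 fold change of -0.59 and was the only 1 of the 6 with both knockdown libraries below both controls, as 16.9% of all tested loci were. Control A held the high values, and without it the median was 0.15. Other immediate early genes (24 tested of 30) divided 13 higher to 11 lower, with a median of 0.02 that was 0.18 without control A and -0.28 without control B. In 18 of these 24 control A exceeded control B, as it did at 51.5% of all tested loci.

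The transcript of Zfp36, which binds AU-rich elements and speeds decay of messages such as Fos, measured 0.19 and 6.31 FPKM in knockdown A and B and 6.94 and 5.48 FPKM in control A and B, so that only knockdown A was low. The growth arrest gene Gadd45g was listed at 0 in knockdown A and stood at 12.3 FPKM in knockdown B, with 12.6 and 4.48 FPKM in control A and B. The BMP target Id1 had the largest positive value of the list, at 47.0 and 32.4 FPKM in knockdown and 10.8 and 26.2 FPKM in control A and B, a log2 difference of 1.16 (standard error 0.45) that missed the threshold (limma adjusted p = 0.918) and was 0.56 without control A. Both knockdown libraries lay above both controls for 5 of these 24 genes and below for 0, against 15% and 16.9% of all tested loci.

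The 5 SRF cofactors tested had a median of -0.37, which was 0.05 without knockdown A. It was 0.38 with a filter at 5 FPKM, which leaves only Elk1 (-0.08) and Elk4 of the 5. Their largest changes were -0.97 for Elk3, 0.84 for Elk4 and -0.54 for Mrtfb. Elk4 stood at 10.3 and 3.93 FPKM in knockdown and 3.39 and 2.93 FPKM in control. Of 17 cytoskeletal targets of SRF and MRTF 14 were on the lower side, with a median of -0.30 that turned to 0.14 without control A and was -0.01 without knockdown A. The smooth muscle actin gene Acta2 was listed at 0 in knockdown A and stood at 1.09 FPKM in knockdown B, with 6.48 and 1.17 FPKM in control A and B, and Cnn1, calponin, stood at 0.17 and 2.76 FPKM in knockdown and 6.33 and 2.46 FPKM in control. Zyx, a focal adhesion protein, was listed at 0 in knockdown A, with 2.42 FPKM in knockdown B and 2.53 and 2.07 FPKM in control.

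Of 13 MYC and MAX partners 8 were on the lower side (median -0.15, 0.12 without knockdown A and 0.0083 without control A). Mycl, the third MYC family gene, stood at 1.10 and 4.92 FPKM in knockdown and 6.38 and 8.01 FPKM in control, a log2 fold change of -1.21 (standard error 0.58). The MAX-binding repressor genes Mxd4 and Mxi1 had log2 fold changes of -1.18 (standard error 0.61) and 0.76 (standard error 0.54). Of 26 MYC target genes 20 were on the higher side, with a median of 0.12 that turned to -0.04 without control A. In control A 21 of the 26 were lower than in control B, while control A lay above control B at 51.5% of all tested loci. Control A also had the lowest Myc and the lowest Mycn, and a link to the target genes was not tested. Shmt2, of mitochondrial one-carbon metabolism, stood out on the other side at 39.4 and 33.5 FPKM in knockdown and 76.6 and 70.9 FPKM in control (log2 fold change -1.0, standard error 0.23), in an interval shared with Ndufa4l2. Tfrc, the transferrin receptor, had 0.61 (standard error 0.44), and the chaperonin gene Hspd1 0.59 (standard error 0.38).

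Upstream, 13 of 20 ERK pathway genes were on the lower side (median -0.10, 0.0027 without knockdown A), with Nras at -0.68, Rps6ka4 at -0.55 and Rps6ka2 at -0.53, each below both controls in both knockdown libraries. Of the 20, 5 lay below both controls and 3 above, against 16.9% and 15% of all tested loci. Nras stood at 25.6 and 37.4 FPKM in knockdown and 55.0 and 45.5 FPKM in control. Of 11 genes of ERK feedback 7 were lower (median -0.07, 0.02 without knockdown A), with Spry2 at -0.69, Dusp4 at -0.53 and Spry4 at 0.49. Dusp4 stood at 15.3 and 34 FPKM in knockdown and 73.6 and 15.0 FPKM in control A and B. Of 13 p38 and JNK kinase genes 10 were lower (median -0.13, between -0.21 and -0.03 with 1 library left out), led by Mapk13 at -0.56, Map2k6 at -0.31 and Map3k1 at -0.22. The 15 genes of AU-rich element decay had a median of -0.04, which was 0.13 without knockdown A, -0.52 without knockdown B and 0.0086 with each library centred on its median. Besides Zfp36, Zfp36l1 had -1.01 (standard error 0.33) and Tia1, a translation silencer, -0.77 (standard error 0.27), both below both controls in both knockdown libraries. They were the only 2 of the 15 on that side, and 3 lay above both controls, again against 16.9% and 15% of all tested loci.

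**Figure D4:**
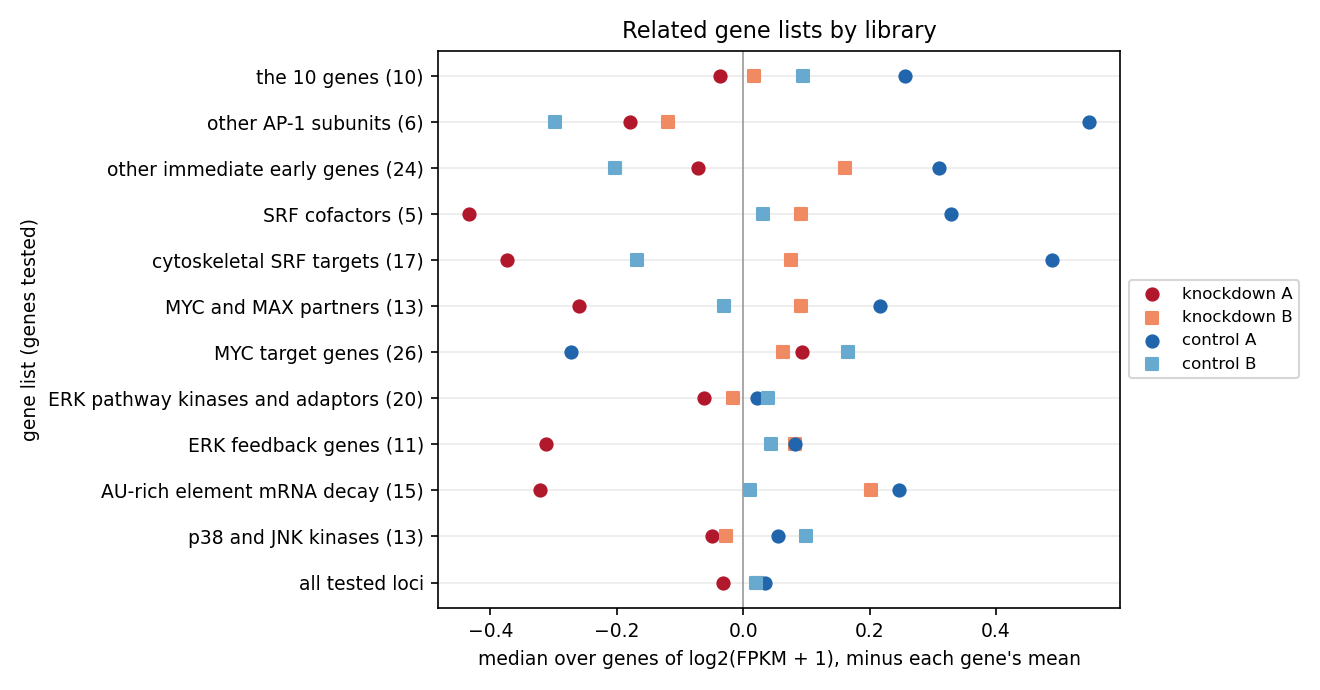
Median over the tested genes of each list of log2(FPKM + 1) minus each gene's own mean, in each library; the number of genes tested is in brackets. Control A is highest in 6 of the 10 related lists and lowest for the MYC target genes (-0.27), and knockdown A is lowest in 7.

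Across the 10 lists knockdown A had the lowest median in 7 and control A the highest in 6. Over all tested loci the medians of the same deviations were -0.03 and 0.02 in knockdown A and B and 0.03 and 0.02 in control A and B. For the other AP-1 subunits they were -0.18 and -0.12 in knockdown A and B and 0.55 and -0.30 in control A and B, and for the cytoskeletal targets -0.37 and 0.08 in knockdown and 0.49 and -0.17 in control. The MYC target genes ran the other way, at 0.09 and 0.06 in knockdown and -0.27 and 0.17 in control.

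The genes most like Fos, Egr1 and Myc were sought among 6506 loci that averaged 10 FPKM or more, by the root mean square difference of their profiles over the 4 libraries, each centred on its own mean in log2(FPKM + 1). Closest to Fos were Pck2 (0.10), a mitochondrial enzyme of gluconeogenesis, Wwtr1 (0.12), a transcriptional coactivator, and Aldh18a1 (0.12), an enzyme of proline synthesis. Pck2 measured 13.9 and 8.01 FPKM in knockdown A and B and 29.2 and 19.2 FPKM in control A and B. Profiles this close to Fos were few, since 16 loci lay within 0.25 of it. Within 0.25 of Egr1 there were 1506 loci and of Myc 670, so their nearest genes are less distinct. These were Mkrn2, Zfyve21 and Dph7 for Egr1 (0.03 each) and Cwc22 (0.03), G3bp2 (0.04) and Pgm1 (0.05) for Myc. A likeness over 4 libraries is a description only.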

How the data were processed

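Per the labels' protocols, ribosomal RNA was removed and strand-marked cDNA libraries were built from 4 samples. The authors deposited FPKM per locus; Cufflinks, Cuffdiff and the mm9 build are named in the submitters' processing notes. The sources used here give no versions, aligner or strand setting, so overlapping genes may share fragments. The members and lists were chosen with earlier results of these data known.

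RefSeq identifiers were matched to symbols of GRCm38.p6, used for names and promoters only: 23237 loci got 1 symbol, 189 several and 271 none, and 206 of 207 list entries were found. Where a symbol had several rows, that with the highest mean stood for it. Starts and ends are as deposited. The named genes are the 10 genes, Kdm5b, the 3 largest absolute log2 fold changes of each list and the 3 nearest profiles of Fos, Egr1 and Myc; other genes were named after their values were seen.

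Loci averaging 1 FPKM or more were tested with limma 3.58.1 in R 4.3.3 on log2(FPKM + 1), where low genes change by less than on a plain scale (group alone, eBayes with trend, two-sided, Benjamini-Hochberg threshold 0.05). The fit was also run on simulated fragments whose spread was set in advance, not taken from these libraries. That run does not tell how many real changes would be called here. Depth was estimated from steps of low FPKM in single transcripts over 800 bp, with 200 bp taken off each length; 78% to 81.7% of those came within 0.15 of a whole fragment. No counting interval rests on these estimates. Alternatives were a pseudocount of 0.1, no filter or a filter at 5 FPKM, quantile normalization, upper-quartile scaling, a replicate block, eBayes without trend and each library left out. Median centring and a minimum of 20 estimated fragments were added after seeing the data. Python 3.11.15 with pandas 2.3.3, numpy 2.4.6 and matplotlib 3.10.9 drew the figures.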

Additional observations from a re-analysis of the deposited data

How the results depend on the processing

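None of the 10 genes was called under any of the 12 alternatives run on them. Of 80 values of the 10 genes under the 8 alternatives that keep all libraries, 78 kept their direction. No filter, the filter at 5 FPKM, eBayes without trend and the replicate block cannot alter these fold changes, so their agreement was fixed in advance. The exceptions were Junb, 0.040 with median centring, chosen after seeing the data, and Mycn, -0.0033 with upper-quartile scaling. With 1 library left out 10 of 40 values changed sign. The ranges were -0.44 to 0.91 for Jun, -0.27 to 0.24 for Junb, -0.17 to 0.30 for Jund, -0.20 to 0.60 for Egr1, -1.92 to 0.15 for Srf, -0.44 to 0.63 for Myc and -0.22 to 0.25 for Mycn. The median of the 10 lay between -0.35 (without control replicate B) and -0.0073 (without knockdown replicate B). It was 0.01 over the 9 genes with at least 20 estimated fragments in every library, a choice made after seeing the data.

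Over all tested loci 4 were called, all lower in knockdown (Lars2, Mir6236, Mir3960 and Mir3070b, named after their values were seen). The count was 1 with no filter, 2 with eBayes without trend, and 0 to 134 with 1 library left out (134 without knockdown replicate B, of which 119 lower, 13 without knockdown replicate A, of which 2 lower and 11 higher, 0 without either control); the cause was not tested. With the replicate block it was 7. Same-lettered libraries did not deviate together (r = -0.07 across loci), so the letters are not taken as pairs. Of the 10 list medians 2 were above 0, and 1 to 7 with 1 library left out (7 without knockdown replicate A). A library left out leaves an arm with 1 sample, assumed to vary like the others. The lowest estimated fragment numbers of the 10 genes were 17 for Srf in knockdown A and 30 for Fos in knockdown B.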
